A study of Mus musculus with 9 samples.

Results

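The mouse mitochondrial genome carries a small set of protein-coding genes, and 10 of them were followed here across 9 RNA samples of the paraventricular nucleus of the hypothalamus (PVN): ATP6, COX1, COX2, COX3, CYTB, ND1, ND2, ND4, ND5 and ND6. They were taken by their gene identifiers (17705, 17708, 17709, 17710, 17711, 17716, 17717, 17719, 17721 and 17722, in that order) from a raw count table of 27179 genes. All 10 passed the filter on low counts, which left 17344 genes to be tested. The mice were wild-type males labelled C57BL/6 (C57BL/6J in the study's methods), 5 weeks old at the start of the diets, with 3 independent animals in each group. Control mice ate a diet with 16% of calories from fat. HFD mice ate a diet with 60% of calories from fat for 12 weeks. HFD+Mino mice ate the same high-fat diet and received minocycline in their drinking water, at 40 mg/kg per day, during the last 6 weeks. No group received minocycline on the control diet, so the effects of the drug alone were not measured. The punches hold every cell type of the region, and in such bulk tissue fewer cells of a type and less RNA per cell cannot be told apart.

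Mitochondrial DNA is transcribed from both strands as long precursors, which are cut mostly at the tRNAs. Most of the mRNAs are given short poly(A) tails. ND1, ND2, ND4, ND5 and ND6 encode subunits of complex I, which takes electrons from NADH. CYTB encodes the cytochrome b subunit of complex III, COX1 to COX3 encode the core of cytochrome c oxidase (complex IV), and ATP6 encodes a proton-channel subunit of ATP synthase (complex V). These mRNAs are translated inside the organelle by ribosomes that carry the 2 mitochondrial rRNAs. Tetracyclines, the class of antibiotic to which minocycline belongs, act on bacterial ribosomes and can also inhibit mitochondrial translation, so the question for the mRNAs of this genome was whether their levels differed with the diet or with the drug.

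The ends of the 10 coding sequences fall into a pair of kinds, and this grouping was chosen after the values below were seen. The last 24 bases of each gene on the mm10 mitochondrial genome are printed 5′ to 3′ from the GENCODE M21 transcripts, with the letters of the stop codon in capitals. COX3 (chrM:8607-9390), ND4 (chrM:10167-11544) and CYTB (chrM:14145-15288) end in a single T, which becomes a stop codon when the poly(A) tail is added. The other 7 genes end in a complete stop codon.
COX3: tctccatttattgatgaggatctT
ND4: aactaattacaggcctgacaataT
CYTB: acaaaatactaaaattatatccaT
ND1: gcgggagtaccaccatacataTAG
ND2: ctagccccccaactaattaccTAG
COX1: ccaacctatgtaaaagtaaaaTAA
COX2: aactgatctgcttcaataattTAA
ATP6: ctatatctacatgataatacaTAA
ND5: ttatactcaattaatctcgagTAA
ND6: attatcgagattactcgagatTAA
ND1 lies at chrM:2751-3707, ND2 at chrM:3914-4951, COX1 at chrM:5328-6872, COX2 at chrM:7013-7696, ATP6 at chrM:7927-8607 and ND5 at chrM:11742-13565. ND6 (chrM:13552-14070) is the only one of the 10 on the minus strand, and its end overlaps the end of ND5. The library kit does not mark strand, so reads from ND6 and from the opposite strand of the same region cannot be told apart.

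Several of these genes have copies in nuclear DNA that are identical over a whole read. Each gene was cut into all its 50-base windows, the length of 1 read, and every window was looked up in the annotated transcripts outside the mitochondrial genome. For COX2 100%, for COX3 99.9% and for ATP6 99.5% of the windows had an identical match. The main copies were pseudogenes side by side on the minus strand of chromosome 1: Gm28661 (chr1:24614885-24615565) for COX2, Gm10925 (chr1:24613974-24614651) for ATP6 and Gm28437 (chr1:24613189-24613971) for COX3. COX2 differed from Gm28661 at 0 of 681 bases compared, ATP6 from Gm10925 at 0 of 678, and COX3 from Gm28437 at 0 of 783. A stretch of 60 bases starting at base 301 of COX2 (chrM:7313-7372) and its place in Gm28661 (chr1:24615206-24615265) are printed to show that a read cannot be assigned to either by its letters.
COX2: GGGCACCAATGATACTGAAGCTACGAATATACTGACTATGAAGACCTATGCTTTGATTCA
Gm28661: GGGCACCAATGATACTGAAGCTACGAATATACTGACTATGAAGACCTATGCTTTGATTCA
In ND4 62.2% of the windows were shared, all with Gm28439 (chr1:24611535-24612410), which ran for 876 bases with 0 mismatches and stopped inside the gene. The 60 bases across that point (chrM:11013-11072) are shown with the shared part in capitals.
ND4: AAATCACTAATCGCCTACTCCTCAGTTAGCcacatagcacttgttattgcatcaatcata
In COX1 51.1% of the windows were shared, in ND2 8.2% and in ND5 7.6%. ND1, ND6 and CYTB had none. Only annotated transcripts were searched, and how reads with several equal matches were counted is not given in the sources used here.

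The level of each gene, in CPM (counts scaled to a common library total, with the TMM factor of the library) per kb of gene length, fell into 2 separate ranges. COX2, ATP6 and COX3, the 3 genes with over 95% of their windows shared, reached at most 163 CPM per kb in any sample. The other 7 were at 243 or more in every sample. CYTB had the highest mean over the 9 samples (6322 CPM per kb), but it was above ND1 (6051) in only 5 of 9 samples, so their order was not stable. COX1 (3676) was above ND2 (1999) in 9 of 9 samples, and ND2 was above ND4 (1744) in 8 of 9. ND6 (896) and ND5 (776) exchanged places between samples, with ND6 higher in 5 of 9. ND5 was above COX3 (71.8) in every sample, by 5.24 to 22.1 times. COX3 was above ATP6 (56.8) in 6 of 9 samples, and ATP6 above COX2 (41.0) in 9 of 9. The level of a gene with shared windows holds the reads assigned to the mitochondrial gene, and what share of its reads that is was not tested. ATP8, a mitochondrial mRNA that is not among the 10, reached only 8.23 to 44.6 CPM per kb, with 0% of its windows in an annotated nuclear transcript. Its place (chrM:7766-7969) is between COX2 and ATP6, whose copies Gm28661 and Gm10925 are neighbours on chromosome 1. The nuclear DNA between those copies was not searched, so whether ATP8 has a copy there was not tested.

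**Figure D1:**
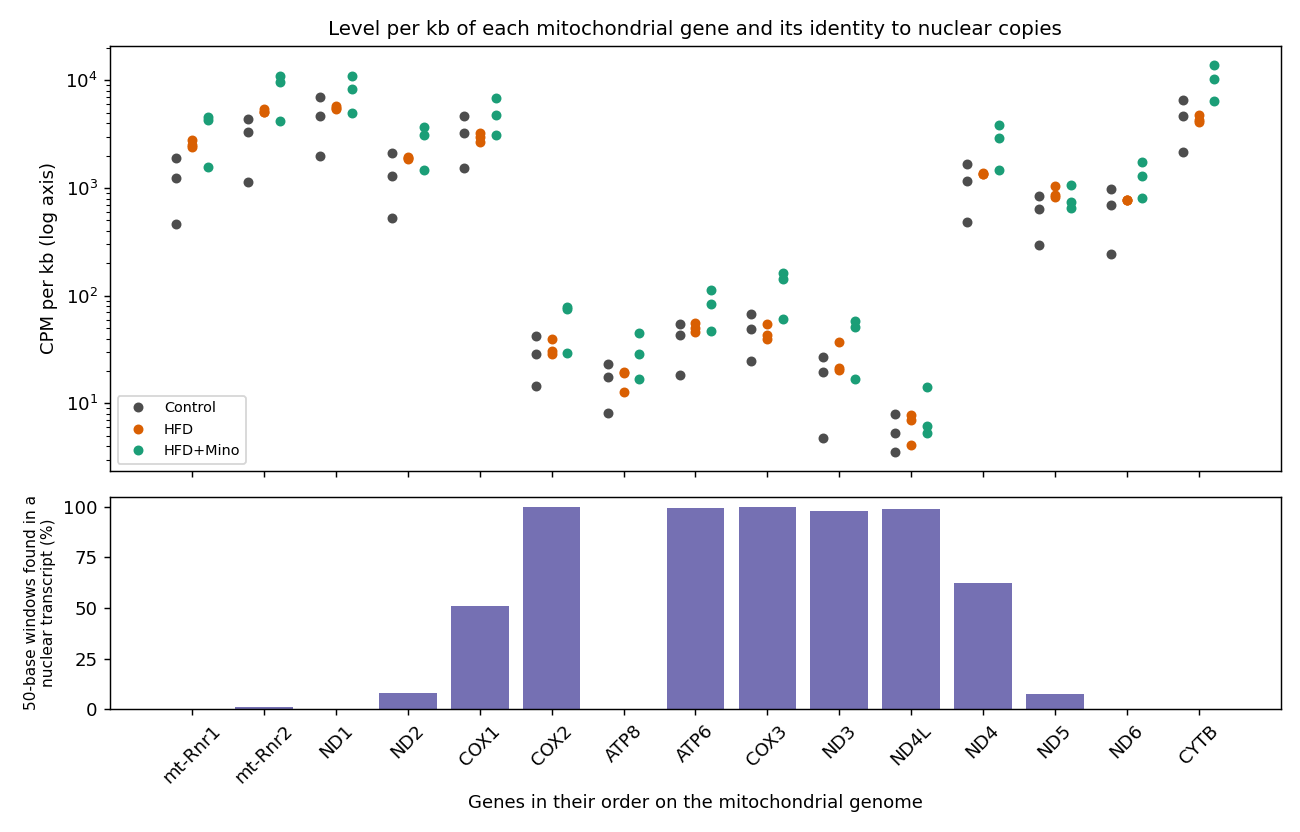
Upper panel: level of each listed mitochondrial gene in the 9 samples, in CPM per kb on a log axis, with genes in genome order and 1 point per sample coloured by group. Lower panel: percentage of the gene's 50-base windows with an identical match in a nuclear transcript. COX2, ATP6 and COX3, at 99.5% or more, are the members at 163 CPM per kb or less, while COX1 and ND4, at 51.1% and 62.2%, stay above 243.

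Library totals ran from 17728590 to 42326213 assigned counts. The cell make-up of the punches differed between animals. Summed CPM of 6 PVN neuron markers (Avp, Oxt, Crh, Trh, Sim1 and Otp) was 27.8, 932 and 2563 in Control, 2479, 3206 and 3726 in HFD, and 37726, 31917 and 3104 in HFD+Mino. In Control 1 Avp was at 0.149 CPM and Oxt at 0.770 CPM, so the defining PVN peptides were close to absent from the library labelled as PVN, and its 5 oligodendrocyte markers summed to 27545 CPM against 1956 to 6225 in the other 8. The 5 astrocyte markers summed to 1560 to 1722 CPM in Control, 2096 to 2217 in HFD and 961 to 1506 in HFD+Mino, and the 6 microglia markers to 160 to 216, 226 to 240 and 177 to 223. The 6 general neuron markers summed to 3904 to 7874 CPM over all 9 samples and the 4 endothelial markers to 44.5 to 128. The 3 ependymal markers summed to 4.02 to 89.1 CPM in Control, 99.4 to 179 in HFD and 202 to 417 in HFD+Mino. That is the order of the groups in the mitochondrial share of counts below. The 4 choroid plexus markers summed to 4.21 to 5.14, 4.61 to 13.4 and 11.2 to 15.2 in the same order of groups. None of the markers was at 0 in every sample. Rn45s, the ribosomal RNA precursor, was at 239 to 461 CPM in Control, 3477 to 3829 in HFD and 426 to 1346 in HFD+Mino. The part of these differences in the results below was not tested, and the fold changes and calls below are also given without Control 1, Control 3 or HFD+Mino 3 where these moved them.

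The 10 mRNAs together took the largest share of counts in HFD+Mino. They made up 2.67%, 2.02% and 0.960% of all counts in the 3 Control samples, 2.51%, 2.06% and 2.08% in HFD, and 3.05%, 4.31% and 2.34% in HFD+Mino. The group means were 1.88% ± 0.863, 2.21% ± 0.253 and 3.23% ± 0.996 (SD, n = 3). Control differed most from sample to sample, by 2.78 times between its highest and lowest sample, whereas the HFD samples differed by 1.22 times. HFD+Mino 1 and 2, the libraries with the most PVN neuron marker counts, also had the highest shares, while HFD+Mino 3, at 2.34%, was below Control 1 and HFD 1. The other groups went the opposite way. Control 1 (27.8 CPM) and HFD 1 (2479 CPM) had the lowest marker sums of their groups and the highest shares (2.67% and 2.51%). The groups overlapped, and no test was run on this sum.

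**Figure D2:**
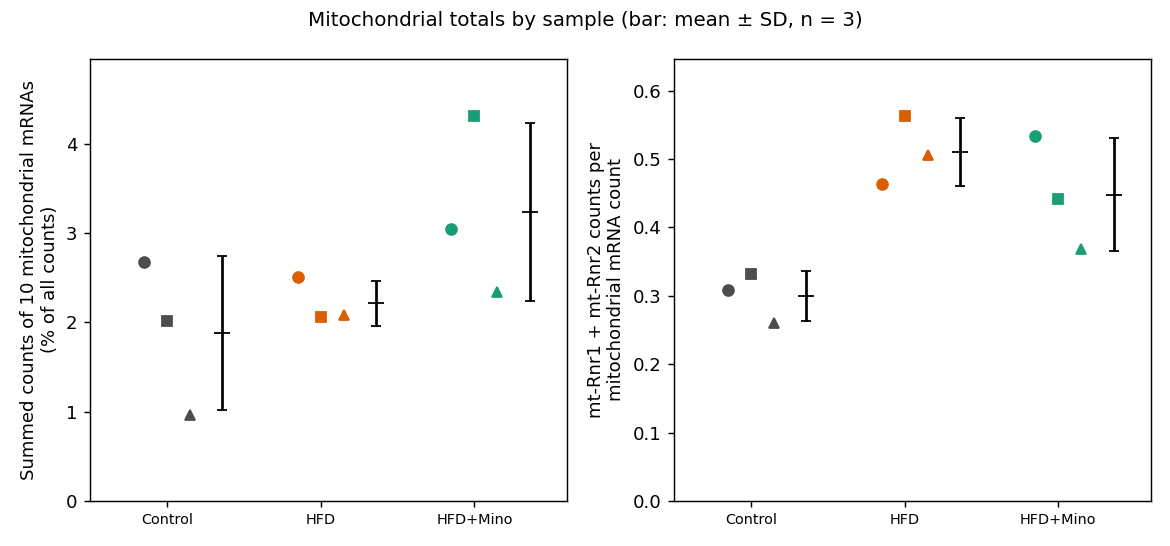
Left: summed counts of the 10 mitochondrial mRNAs as a percentage of all counts in each sample. Right: counts of both mitochondrial rRNAs per count of the 10 mRNAs; bars show the mean ± SD of 3 animals. HFD+Mino 2 has the highest mRNA share (4.31%) and Control 3 the lowest (0.960%), and the rRNA ratio of all 3 Control samples (0.260 to 0.332) lies below that of every other sample.

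Among the complex I genes, ND1 was at 6671, 4459 and 1908 CPM in Control, 5498, 5307 and 5214 in HFD, and 7892, 10418 and 4748 in HFD+Mino. HFD lay inside the Control range, and HFD+Mino had 2 samples above and 1 below all HFD samples. ND4 was at 2296, 1599 and 664 CPM in Control, 1908, 1859 and 1853 in HFD, and 4055, 5360 and 2039.6 in HFD+Mino. All HFD+Mino samples were above all HFD samples, HFD+Mino 3 by a narrow margin, while Control 1 was above HFD+Mino 3. ND5 was at 1527, 1157 and 539.8 CPM in Control, 1914, 1518 and 1589.7 in HFD, and 1368, 1930.1 and 1199.96 in HFD+Mino. It was the one member whose mean was lower in HFD+Mino (1499 CPM) than in HFD (1674 CPM), with overlapping samples. ND6 was at 506, 362 and 126 CPM in Control, 398.5, 398.6 and 399.6 in HFD, and 667, 907 and 419.6 in HFD+Mino. Its HFD samples differed from each other by far less than those of either other group, with a coefficient of variation of 0.150%, and all were below the HFD+Mino samples. ND2 ranged from 548 to 2216 CPM in Control, from 1944 to 2036 in HFD and from 1539.7 to 3819.7 in HFD+Mino.

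CYTB, of complex III, was at 7469, 5348 and 2449 CPM in Control, 5439, 4673 and 4884 in HFD, and 11697, 15832 and 7303 in HFD+Mino. Every HFD+Mino sample was above every HFD sample, and only Control 1 kept it from being above every Control sample as well. Of complex IV, COX1 was at 7268.5, 4972 and 2361 CPM in Control, 5048, 4170.4 and 4631 in HFD, and 7308, 10516 and 4842 in HFD+Mino. HFD+Mino 3 lay within the HFD range, and the groups overlapped. COX3 was at 53.2, 38.4 and 19.5 CPM in Control, 42.5, 34.1 and 31.0 in HFD, and 112, 128 and 47.4 in HFD+Mino. All HFD+Mino samples were above all HFD samples, and HFD+Mino 3 was below Control 1. COX2 ranged from 9.86 to 29.0 CPM in Control, from 19.6 to 27.3 in HFD and from 20.0 to 54.3 in HFD+Mino. ATP6, of complex V, ranged from 12.6 to 36.8, from 31.0 to 38.2 and from 32.0 to 76.7 CPM in the same order, and both overlapped between all groups. The coefficient of variation over the 10 genes was 45.5% to 61.0% in Control, 0.150% to 17.9% in HFD and 25.5% to 45.5% in HFD+Mino.

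**Figure D3:**
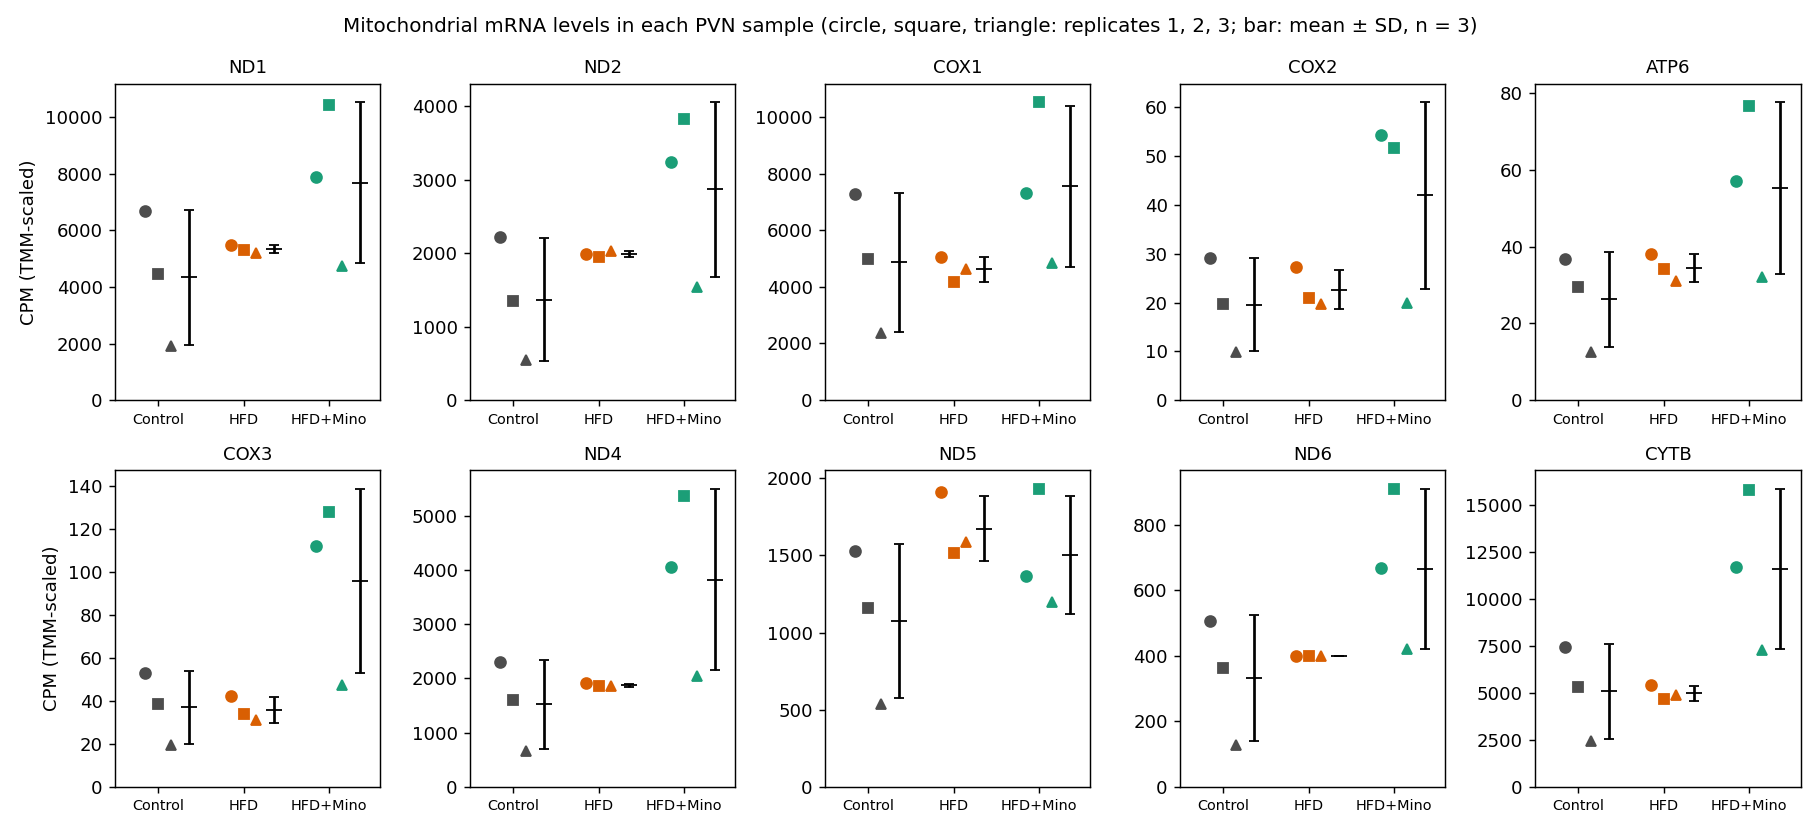
CPM of each of the 10 genes in every sample, with linear axes from 0, symbols for the replicate number and bars for the mean ± SD of 3 animals. For all 10 genes Control 3 is the lowest of the Control samples and Control 1 the highest. COX3, ND4, ND6 and CYTB are the genes whose 3 HFD+Mino samples are all above the 3 HFD samples.

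The comparison of HFD with Control addressed the diet alone. No mitochondrial mRNA passed the test. Under edgeR's quasi-likelihood test, with a false discovery rate (FDR, Benjamini-Hochberg) under 0.01 and at least 1.5-fold, 0 of the 10 members were called, where 1.74% of all tested genes were. At an unadjusted p under 0.05 the count was also 0, against 20.5% of all genes, and DESeq2 called 0. The log2 fold changes ran from −0.08 ± 0.38 (SE) for COX1 to 0.64 ± 0.34 for ND5 (FDR = 0.320), and the groups overlapped for all 10 genes, where 19.7% of all genes were higher and 16% lower in every HFD sample than in every Control sample. The median was 0.28, against 0.00 over all tested genes, with 7 of the 10 positive by the TMM scaling and 9 when libraries were scaled by total counts. The median rested on single Control samples: without Control 3 it was −0.09 with 3 of 10 positive, and without Control 1 it was 0.70 with 10 of 10 positive. The standard errors were 0.34 to 0.45. A block that pairs Control with HFD+Mino samples by replicate number was chosen from these same counts. With it the standard errors were 0.19 to 0.23 and all 10 values were positive. Of the members 0 were called, where 6.22% of all genes were. In that fit ND2 stood at 0.74 ± 0.20 (FDR = 0.0332), and ND5, ATP6 and ND4 were also under an unadjusted p of 0.05.

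The comparison of HFD+Mino with HFD addressed the drug on the high-fat diet. COX3, CYTB and ND4 had the highest fold changes, and they are the members that end in a single T. No member passed both thresholds: 0 of 10 were called, where 4.15% of all tested genes were. At an unadjusted p under 0.05 there were 3, all higher in HFD+Mino, where 41.3% of all genes passed that rule and 21.6% were higher. The log2 fold change was 1.42 ± 0.41 for COX3 (FDR = 0.0278), 1.22 ± 0.39 for CYTB (FDR = 0.0392) and 1.03 ± 0.43 for ND4 (FDR = 0.0948). COX3 and CYTB were thus under an FDR of 0.05, as were 27.5% of all tested genes. ND6 stood at 0.74 ± 0.43 (FDR = 0.214), and with it 4 of the 10 members had all HFD+Mino samples above all HFD samples, where 23.3% of all genes did. COX2 (0.89), COX1 (0.71), ATP6 (0.68), ND2 (0.53) and ND1 (0.53) had FDRs of 0.139 to 0.397. ND5 was the only negative value, at −0.16 ± 0.34 (FDR = 0.758). The median was 0.72, against 0.01 over all genes. The link between the highest values and the kind of stop codon was noticed after the values were seen and is given without a test.

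These calls depended on the model. DESeq2 called 2 members, COX3 (FDR = 0.00424) and CYTB (FDR = 0.00890), where it called 22.2% of all genes. The block on replicate number in Control and HFD+Mino was chosen from these same counts, and no label states that the animals were paired. Its FDRs are therefore not independent of that choice. With that block COX3 (FDR = 0.000847), CYTB (FDR = 0.00182) and ND4 (FDR = 0.00398) were called, where 25.6% of all genes were. HFD+Mino 3 decided part of this: without it COX3 was called at a log2 fold change of 1.75 (FDR = 0.00343), the median was 0.97 and 21.4% of all genes were called.

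In HFD+Mino against Control, which differ in diet and drug together, all 10 members had a positive log2 fold change, from 0.48 ± 0.34 for ND5 to 1.37 ± 0.41 for COX3. The sign held under every scaling by a whole-library total that was tried. None was called, as for all tested genes (0%), and FDRs ran from 0.133 to 0.424. At an unadjusted p under 0.05 there were 7 (COX3, ND4, CYTB, ATP6, COX2, ND2 and ND6), where 21.3% of all genes passed that rule and 12.7% were higher. DESeq2 called 0 members. COX3, ND4 (1.33 ± 0.43) and CYTB (1.19 ± 0.39) again had the highest values, and the median was 1.07 against −0.02 over all genes. This comparison shares the HFD+Mino samples with the one before, so the likeness of their order is not independent. The groups overlapped for all 10 genes, where 8.93% of all genes were higher and 10.1% lower without overlap. Under the block that pairs Control with HFD+Mino samples, 5 members were called, where 3.18% of all genes were. These were COX3 (FDR = 0.00545), ND4 (FDR = 0.00545), CYTB (FDR = 0.00727), ND2 (FDR = 0.00846) and ATP6 (FDR = 0.00959). That block was chosen from these same counts and no label states a pairing, so its FDRs are not independent of that choice. The fit without the block called none of the members. Without Control 1 the median was 1.47, without Control 3 it was 0.71, and without HFD+Mino 3 it was 1.35 with COX3 called (FDR = 0.00900).

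The 3-way test asks whether a gene differs among the groups with HFD highest or lowest and its mean 1.5-fold or more away from the average of the groups. Of the members 0 were called, where 2.13% of all genes were, and DESeq2 also called 0. At an unadjusted p under 0.05 for any difference among the groups, with no rule on HFD, there were 5, where 39% of all genes passed. Of these, COX3 and CYTB had HFD lowest. COX2, ATP6 and ND4 had HFD between the other groups, with log2 fold changes of 0.21, 0.39 and 0.30 in HFD minus Control. In HFD+Mino minus Control theirs were 1.10, 1.07 and 1.33. COX3 alone was under an FDR of 0.05 (FDR = 0.0355), where 18.4% of all genes were with HFD highest or lowest. The HFD mean lay below the mean of the groups for 8 members, with a median of −0.19 on the log2 scale. For COX3 the distance was −0.49, for CYTB −0.41 (FDR = 0.0505), and for ND5 0.27 in the opposite direction (FDR = 0.330).

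**Figure D4:**
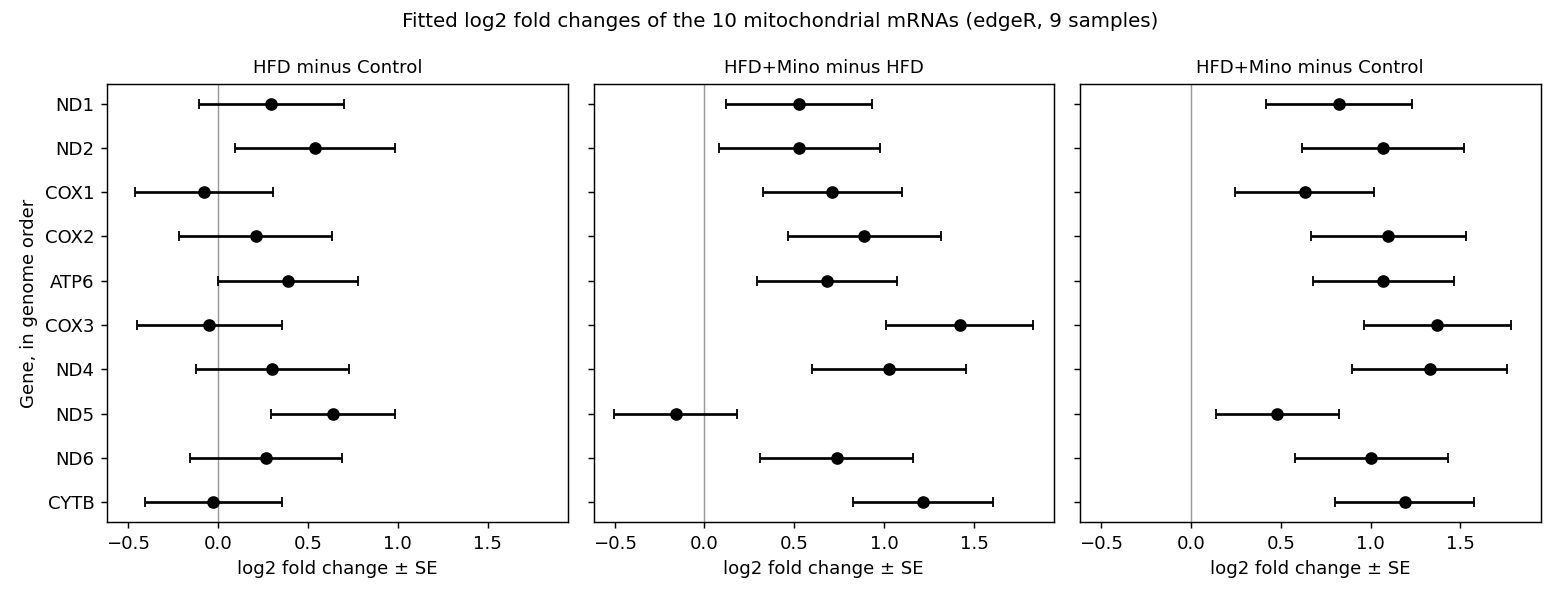
Log2 fold changes with their standard errors for the 10 genes in genome order, from 1 edgeR fit over the 9 samples. In HFD minus Control the values lie on both sides of 0 (−0.08 to 0.64). In HFD+Mino minus HFD only ND5 is below 0, and COX3, ND4 and CYTB are highest in both comparisons with HFD+Mino.

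The mix of mitochondrial mRNAs separated the groups more cleanly than the total did. As a percentage of the summed counts of the 10 genes, CYTB took 26.6%, 27.7% and 28.4% in Control, 24.4%, 23.4% and 23.6% in HFD, and 32.1%, 32.3% and 32.9% in HFD+Mino. No sample of one group reached another group. ND5 took 5.44%, 5.98% and 6.25% in Control, 8.58%, 7.61% and 7.68% in HFD, and 3.75%, 3.94% and 5.41% in HFD+Mino, again with the 3 groups apart. ND1 took 23.0% ± 0.843 of the sum in the Control samples, 25.5% ± 0.996 in the HFD samples and 21.4% ± 0.204 with minocycline (SD, n = 3), also apart. COX1 took 26.3% ± 0.887 in Control, above all samples of HFD (21.97% ± 0.943) and HFD+Mino (21.1% ± 0.934).

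Between HFD and Control, ND1, ND2, ND4 and ND5 had higher shares in every HFD sample, where 1.06% of all tested genes were apart in that direction relative to the same sum. ND6, the remaining complex I member, overlapped, at 1.46% to 1.87% in Control and 1.79% to 2.00% in HFD. COX1 and CYTB had lower shares, where 18.1% of genes were. Between HFD+Mino and HFD, COX3 and CYTB were apart upward, where 6.73% of genes were, and ND1 and ND5 downward, where 33.9% were. Between HFD+Mino and Control, ND4 and CYTB were apart upward (0.421% of genes) and ND1, COX1 and ND5 downward (18.1%). Shares add to a fixed sum, so a higher share of one gene lowers the others. The members move with their own sum, and other genes need not. Percentages over all genes are therefore not a like background for the members, and their separation is not shown to be rare. Relative to that sum the median log2 fold change of all genes was −0.48 in HFD minus Control, −0.61 in HFD+Mino minus HFD and −1.15 in HFD+Mino minus Control. In an edgeR fit with the summed member counts as library size no member was called in any comparison, but that fit called only 8 of 17344 genes in HFD minus Control and 0 in each of the other comparisons. The smallest p in HFD+Mino minus HFD was that of ND5, with a log2 fold change of −0.87 ± 0.35 (FDR = 0.215), and for CYTB the value was 0.45 ± 0.28 (FDR = 0.368).

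Ratios between pairs of these genes were chosen after the values were seen and are given without a test. Inside a group the highest value was from 1.02 times the lowest (ND4 per ND1 in HFD) to 1.57 times (COX3 per COX1 in HFD+Mino). COX3 per COX1 was 0.00732 to 0.00828 in Control, 0.00669 to 0.00841 in HFD and 0.00978 to 0.0154 in HFD+Mino. Of others computed, ND5 per ND6 overlapped between Control (3.02 to 4.28) and HFD (3.81 to 4.80). ND5 per ND1 overlapped between Control (0.229 to 0.283) and HFD+Mino (0.173 to 0.253), while CYTB per ND1 and COX1 per ND1 had all groups apart. No share over all genes was computed relative to COX1, ND1 or COX2 counts. ND5 and CYTB lie next to each other on the plus strand with only ND6, on the other strand, and a tRNA between them. ND5 counts per CYTB count were 0.204, 0.216 and 0.220 in Control, 0.352, 0.325 and 0.325 in HFD, and 0.117, 0.122 and 0.164 in HFD+Mino. The group means were 0.214 ± 0.00831, 0.334 ± 0.0154 and 0.134 ± 0.0260 (SD, n = 3), and Control lay between the other groups without overlap. Control 1 and Control 3, whose CYTB levels were 7469 and 2449 CPM, had almost the same ratio. Relative to CYTB counts, 2.23% of all tested genes were higher in every HFD than in every Control sample. For HFD+Mino, 54.1% were lower than in every HFD sample and 36.5% were lower than in every Control sample. These percentages too are not a like background, because members move together and other genes need not move with CYTB.

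CYTB counts per COX1 count were 1.028, 1.076 and 1.037 in Control, 1.077, 1.120 and 1.055 in HFD, and 1.60, 1.51 and 1.51 in HFD+Mino. The Control and HFD samples overlapped and all HFD+Mino samples were above them. ND4 per ND1 followed the same pattern, at 0.344, 0.359 and 0.348 in Control, 0.347, 0.350 and 0.355 in HFD, and 0.514, 0.515 and 0.430 in HFD+Mino. COX3 per COX2, a pair that both have nearly all windows in nuclear copies, was 1.83, 1.94 and 1.98 in Control, 1.56, 1.62 and 1.58 in HFD, and 2.07, 2.48 and 2.37 in HFD+Mino. In each of these 3 ratios the numerator is a gene that ends in a single T and the denominator one with a complete stop codon. The numerators are the genes already seen to have the highest fold changes in HFD+Mino. These ratios thus restate those values and add nothing to the grouping by stop codon.

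**Figure D5:**
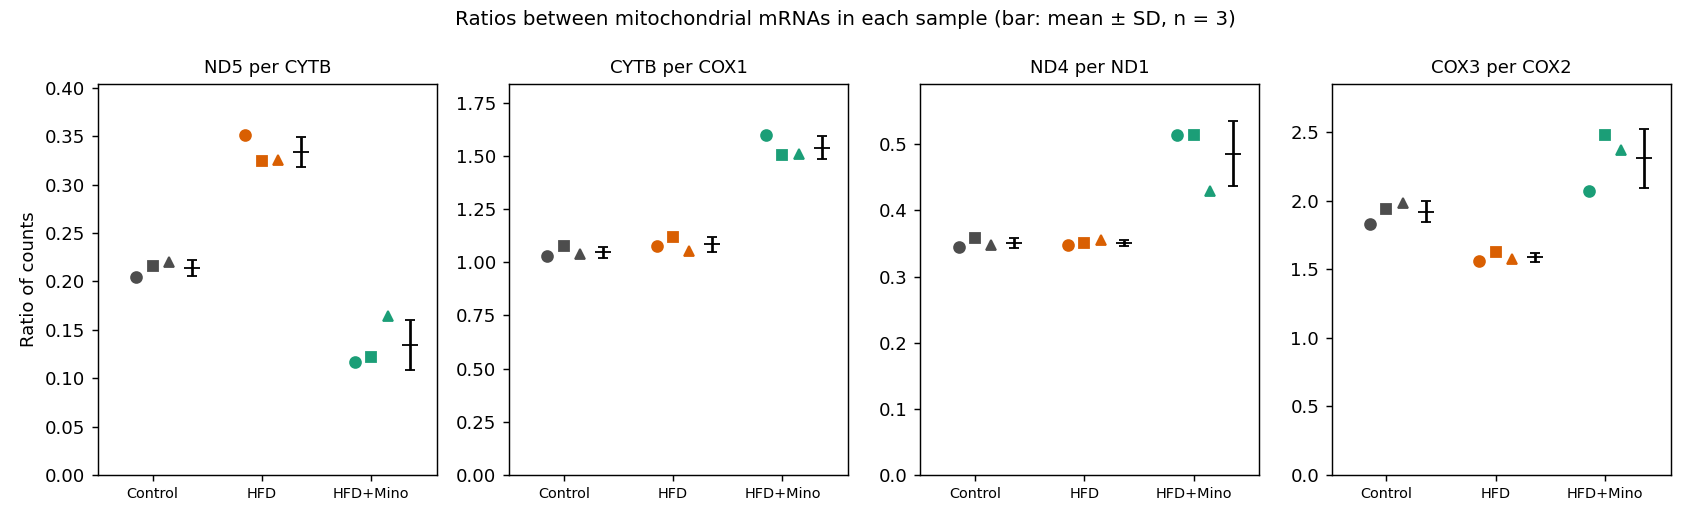
Ratios of counts between members in each sample, with linear axes from 0, symbols for the replicate number and bars for the mean ± SD of 3 animals. ND5 per CYTB is highest in HFD (0.325 to 0.352) and lowest in HFD+Mino (0.117 to 0.164). The other 3 ratios are highest in all HFD+Mino samples.

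Over the 9 samples the log2 CPM of the members moved together. Pearson's r over the 45 pairs ran from 0.585 to 0.992 with a median of 0.944, and ND5 had the lowest median with the others (0.768). The points share the library scaling and the group differences, so these values describe the samples. Outside the mitochondrial genome, the 5 genes of 17329 closest to the mean log2 CPM of the members were Sgce (r = 0.992), Rtraf (r = 0.975), Npb (r = 0.974), Usmg5 (r = 0.968) and Rpl15 (r = 0.965). Across the 10 members the log2 fold change in HFD minus Control had a Spearman correlation of −0.697 with GC content and 0.103 with gene length, while in HFD+Mino minus HFD these were 0.261 and −0.212.

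Counts of the mitochondrial rRNAs per mRNA count were lowest in Control, but no test of the rRNAs against the mRNAs passed. The library kit primes on poly(A), so counts of rRNAs, mitochondrial or cytosolic, need not follow the amounts of these RNAs. What share of each rRNA was captured was not tested. mt-Rnr1, the small-subunit rRNA, was at 1809, 1195 and 444 CPM in Control, 2317, 2667 and 2408 in HFD, and 4072, 4335 and 1498 in HFD+Mino. mt-Rnr2, the large-subunit rRNA, was at 6866, 5217 and 1803 CPM in Control, 8010.3, 8564 and 8055 in HFD, and 15402, 17323 and 6674 in HFD+Mino. Both were above all Control samples in every HFD sample, where 19.7% of all genes were and none of the 10 mRNAs was. Counts of both rRNAs per mRNA count were 0.309, 0.332 and 0.260 in Control, 0.463, 0.563 and 0.506 in HFD, and 0.534, 0.442 and 0.368 in HFD+Mino, so both high-fat diet groups were above all Control samples. Relative to the same sum 1.06% and 0.421% of all genes were apart upward from Control, with the limit on such shares given above. Fitted against that sum, mt-Rnr1 stood at 0.99 ± 0.35 (FDR = 0.341) and mt-Rnr2 at 0.70 ± 0.29 (FDR = 0.506) in HFD minus Control. The main tests of the single rRNAs, scaled by library, also did not pass. Their log2 fold changes in HFD minus Control were 1.10 ± 0.48 for mt-Rnr1 (FDR = 0.223) and 0.83 ± 0.45 for mt-Rnr2 (FDR = 0.328). For HFD+Mino minus Control they were 1.52 ± 0.48 (FDR = 0.141) and 1.504 ± 0.46 (FDR = 0.135). In HFD minus Control the values of mt-Rnr1 and mt-Rnr2 were 0.71 and 0.44 without Control 3, and 1.58 and 1.22 without Control 1. In HFD+Mino minus Control they were 1.13 and 1.12 without Control 3, 2.01 and 1.90 without Control 1, and 1.87 and 1.82 without HFD+Mino 3, and neither was called in any of these. With the replicate block in Control and HFD+Mino both were called in HFD minus Control (FDR = 0.00163 and 0.00465), where 6.22% of all genes were. Both were also called with it in HFD+Mino minus Control (FDR = 0.00509 for each), where 3.18% were. The block was chosen from these same counts, so its FDRs are not independent of that choice. The Rn45s precursor of the cytosolic rRNAs was called higher in HFD than in Control (log2 fold change 3.36 ± 0.41, FDR = 0.00111) and lower in HFD+Mino than in HFD (−2.11 ± 0.39, FDR = 0.00800), and whether the mitochondrial rRNA values share its source was not tested. The first call held without each sample in turn, and the second was lost without Control 2, HFD+Mino 2 or any 1 of the HFD samples (FDR = 0.0166 to 0.0379). The remaining mRNAs listed, ATP8, ND3 and ND4L, were low, with means of 1.66 to 14.6 CPM per group. ND3 and ND4L had 98.0% and 98.8% of their windows in annotated nuclear transcripts and ATP8 had 0%, and none was called.

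The nuclear genes for the same complexes were described from a list of 73 subunits, 72 of them tested. In HFD minus Control 0 were called, 5 were lower at an unadjusted p under 0.05, where 20.5% of all genes passed that rule in either direction, and the median log2 fold change was −0.46, beside 0.28 for the mitochondrial members. Without Control 3 these medians were −0.73 and −0.09, and without Control 1 they were −0.16 and 0.70, so their opposite signs rested on Control 3. DESeq2 also called 0. In HFD+Mino minus HFD the median was 1.43 against 0.72 for the members, and 65 of 72 were higher at an unadjusted p under 0.05, where 21.6% of all genes were. Only Ndufa2, an accessory subunit of complex I, was called (log2 fold change 2.08 ± 0.41, FDR = 0.00946), where 1.98% of all genes were called higher. Its levels were 157, 193 and 161 CPM in HFD and 1000.1, 858 and 305 in HFD+Mino, with HFD+Mino 3 again the lowest. That call was lost without Control 2, HFD+Mino 1, HFD+Mino 2 or any 1 of the HFD samples (FDR = 0.0193 to 0.0531). DESeq2 called 50 of 72, where it called 22.2% of all genes. The replicate block in Control and HFD+Mino, which was chosen from these same counts, called 62, where 25.6% of all genes were called. Without HFD+Mino 3 there were 55, where 21.4% were. Without Control 1 or Control 3 there were 6 and 7, where 5.27% and 4.78% of all genes were called. By complex the medians were 1.49 (complex I, 36 genes), 1.10 (complex III, 8), 1.42 (complex IV, 11) and 1.21 (complex V, 17), while the corresponding mitochondrial values were −0.16 to 1.03 for complex I, 1.22 for CYTB, 0.71 to 1.42 for complex IV and 0.68 for ATP6. In HFD+Mino minus Control 0 were called, 46 were higher at an unadjusted p under 0.05, where 12.7% of all genes were, and the median was 0.99. With the replicate block 45 were called (3.18% of all genes), without HFD+Mino 3 there were 16 (6.28%), and DESeq2 called 0 (1.32%).

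The nuclear genes that act on mitochondrial DNA and RNA are given by their counts in HFD+Mino minus HFD, to be read against the shares over all genes: 4.15% called by edgeR, 22.2% by DESeq2, 25.6% with the replicate block in Control and HFD+Mino, 21.4% without HFD+Mino 3, and 41.3% at an unadjusted p under 0.05 (21.6% higher). Of 19 genes of mitochondrial transcription and replication 1 was called, DESeq2 called 2 higher and 3 lower, and the block and the fit without HFD+Mino 3 each called 2 higher and 4 lower. The called gene was Gabpa, at 17.9, 23.1 and 18.4 CPM in HFD and 6.85, 7.06 and 8.44 in HFD+Mino (log2 fold change −1.41 ± 0.24, FDR = 0.00606). Gabpa encodes the DNA-binding subunit of NRF-2, a transcription factor of nuclear respiratory genes. The call held without Control 1, Control 3 or HFD+Mino 3 and was lost without any 1 of the other 6 samples (FDR = 0.0130 to 0.0377). In HFD minus Control it stood at 0.91 ± 0.24 (FDR = 0.0466) and was not called by edgeR. DESeq2 did call it higher there (FDR = 0.00257), where it called 6.76% of all genes. In HFD+Mino minus Control edgeR called none of this list and DESeq2 called 1 lower, where it called 1.32% of all genes. The smallest p of the list in that edgeR comparison was that of Ppargc1a, at −1.11 ± 0.26 (FDR = 0.132). Of 20 genes of mitochondrial RNA processing and stability 0 were called in any comparison, with 10 at an unadjusted p under 0.05 in HFD+Mino minus HFD, 5 in each direction. DESeq2 called 3 there and 1 in HFD minus Control (6.76% of all genes), the block and the fit without HFD+Mino 3 each called 5 in HFD+Mino minus HFD, and without Control 3 there was 1. The smallest p belonged to Slirp, which with Lrpprc stabilises mitochondrial mRNAs, at 1.86 ± 0.40 (FDR = 0.0117). Grsf1, an RNA-binding protein of mitochondrial RNA granules, stood at −0.84 ± 0.20 in HFD minus Control (FDR = 0.0307).

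Of 13 mitochondrial translation factors 0 were called in any comparison. In HFD+Mino minus HFD 5 were higher and 1 lower at an unadjusted p under 0.05. DESeq2 called 4 there and 1 in HFD minus Control, the block called 2 and the fit without HFD+Mino 3 called 3. Guf1, a ribosome-binding GTPase, stood at −0.94 ± 0.24 in HFD minus Control (FDR = 0.0451) and at 0.86 ± 0.24 in HFD+Mino minus HFD (FDR = 0.0260). Of 20 genes of the mitochondrial stress response 19 were tested and 1 was called, Clpp, the matrix protease, at 146, 149 and 154 CPM in HFD and 489.9, 414 and 233 in HFD+Mino (log2 fold change 1.34 ± 0.27, FDR = 0.00949). Its 3 HFD+Mino samples were all above its HFD samples, where 23.3% of all genes had that order. The call held without Control 1 or HFD+Mino 3 and was lost without any 1 of the other 7 samples (FDR = 0.0101 to 0.0520). The median of that list in HFD+Mino minus HFD was 0.22. At an unadjusted p under 0.05, 7 were higher and 0 lower, where 21.6% of all genes were higher. DESeq2 called 3 of them, the block 4, and the fit without HFD+Mino 3 called 4 higher and 1 lower. Nothing particular to these 4 lists is read from their counts.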

How the data were processed

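RNA from PVN punches was made into cDNA with a SMARTer Ultra Low Input v4 kit, which primes on poly(A) and does not keep strand, and sequenced as paired reads of 50 bases. Per the study's methods and the submitters' processing notes, reads were aligned to mm10 (GRCm38) with HISAT2 and assigned to genes with featureCounts. Versions are not given in the sources used here. The deposited values are raw counts per gene and sample, with no normalization by the authors. All 9 columns were used, each matched to its sample by the description label, and 2154 genes had no count in any sample.

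The counts were tested as deposited with edgeR 4.0.16 in R 4.3.3 (TMM factors, filterByExpr, quasi-likelihood F-test, 9 samples in 1 fit, Benjamini-Hochberg over 17344 genes). A gene was called at an FDR under 0.01 and at least 1.5-fold, the thresholds the study names. Alternatives were DESeq2 1.42.0, RLE or no size factors, other library totals, no filter, a replicate block, 6-sample fits and leaving out each sample. Shares among the members were also tested, in an edgeR fit with the summed member counts as library size, and ratios and correlations were given without a test. The test was checked on simulated counts. Depth per sample was 17728590 to 42326213 counts, so spread between samples and not counting error limits the precision. With 1 library per animal, the animal, the punch and the library cannot be told apart as sources of that spread.

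No pair of samples of a group agreed within sampling noise. Deviations from the group means correlated at 0.135, 0.163 and 0.292 between same-numbered Control and HFD+Mino samples, and at −0.152 to −0.006 between HFD and either other group. The HFD samples carry other numbers in the column names than in their titles, and the title numbers were used, so the values for HFD and the block over all 9 samples rest on that choice. The replicate numbers were treated as pairing Control with HFD+Mino. The pairing comes from the counts and not from a statement in the labels, and differently numbered samples were not compared. All FDRs and calls with this block rest on the same counts that chose it. In that fit HFD samples carried no block term.

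Coordinates and sequences are from GENCODE M21 (GRCm38). Gene symbols were matched through the RefSeq table of GRCm38.p6, and 958 identifiers had no symbol. The members and gene lists were chosen with earlier results of these data known. The genes named were the 10 members, the other listed mitochondrial genes, the 5 genes most like the members, and Rn45s, Rn18s and Malat1. From each list the rule took, per comparison, up to 3 called genes or the 2 with the smallest p. Only some of the genes it took, such as Gabpa, Slirp and Guf1, are printed. Others, such as Gfm1, Fastkd3 and Eif2ak1, are not. Ratios and the grouping by stop codon were chosen after the values were seen.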

Additional observations from a re-analysis of the deposited data

How the results depend on the processing

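Counts of called members were 0 in all 4 comparisons. HFD minus Control stayed at 0 under all alternatives. HFD+Mino minus HFD gave 2 by DESeq2, 1 without the filter on low counts, 3 with the replicate block in Control and HFD+Mino, 2 at an FDR under 0.05 with no fold threshold and 0 to 1 over the samples left out in turn. HFD+Mino minus Control gave 5 with that block, which was chosen from these same counts, and 0 to 1 over the samples left out. The 3-way test gave 1 (COX3) at an FDR under 0.05 with no fold threshold and 0 to 1 over the samples left out. The samples left out that gave 1 were in each case HFD+Mino 3. A replicate block over all 9 samples changed no member's call. Group means of the members' share of counts ran from 1.49% to 2.34% in Control, 2.07% to 2.29% in HFD and 2.69% to 3.68% in HFD+Mino over the samples left out. Counts over all genes moved too: DESeq2 called 1172, 3851 and 229 genes in HFD minus Control, HFD+Mino minus HFD and HFD+Mino minus Control, where edgeR called 302, 719 and 0.

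Apart from the fit with the summed member counts as library size, signs of the members changed only in HFD minus Control, among log2 fold changes of −0.08 to 0.30. Over the samples left out in turn, ND1 ran from −0.063 to 0.74, COX1 from −0.41 to 0.33, COX2 from −0.11 to 0.60, COX3 from −0.36 to 0.30, ND4 from −0.060 to 0.72, ND6 from −0.12 to 0.71 and CYTB from −0.36 to 0.35. The lowest of each came without Control 3 and the highest without Control 1. With the replicate block in all samples COX1 (0.066), COX3 (0.078) and CYTB (0.12) turned positive, as they did with the block in Control and HFD+Mino (0.049, 0.061 and 0.10). With total counts COX3 (0.020) and CYTB (0.040) turned positive. The cause was not tested. With the summed member counts as library size, a different quantity by construction, values turned negative in HFD+Mino minus HFD for ND1 (−0.25), ND2 (−0.27), COX1 (−0.058), ATP6 (−0.11) and ND6 (−0.037), and in HFD+Mino minus Control for ND1 (−0.10), COX1 (−0.32) and ND5 (−0.43). Scaling by total counts moved the median of all genes by −0.19 in HFD+Mino minus HFD and by −0.17 in HFD+Mino minus Control, and the members' medians to 0.50 and 0.90.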

Other observations

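Malat1, a nuclear RNA, was at 3699, 2878 and 1297 CPM in Control, 789, 1099 and 1144 in HFD, and 3955, 6199.9 and 2778 in HFD+Mino. It was called higher in HFD+Mino than in HFD by edgeR (log2 fold change 2.09 ± 0.40, FDR = 0.00880) and, like the 10 mitochondrial mRNAs, was lowest in replicate 3 of Control and of HFD+Mino. Its call was lost without Control 2, HFD+Mino 1, HFD+Mino 2 or any 1 of the HFD samples (FDR = 0.0189 to 0.0469). Rn18s, the small-subunit cytosolic rRNA, was called higher in HFD than in Control (2.94 ± 0.50, FDR = 0.00701, and 0.0105 to 0.0428 without Control 2, Control 3, HFD+Mino 2 or any 1 of the HFD samples). In HFD+Mino minus HFD it stood at −1.40 ± 0.47 (FDR = 0.0475), not called. The limit on rRNA counts from priming on poly(A), given above, holds for Rn18s too.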
